A study of Homo sapiens with 3 samples.

Results

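The miR-193 and miR-365 hairpins were read in MV4-11, an FLT3-ITD+ cell line of human acute myeloid leukemia (AML). The rule took hairpin rows named hsa-mir-193a, hsa-mir-193b, hsa-mir-365a or hsa-mir-365b, and the mature rows of all their arms. It found 4 of 661 hairpin rows and 6 of 851 mature rows, while 2 of the 8 annotated arms, miR-193b-5p and miR-365a-5p, had no row. The data were 3 small RNA libraries of a single group, all from cells that carried an empty-vector (EV) lentiviral CRISPR-Cas9 construct, were labelled WT and had grown for 2 weeks. No treated or untransduced group was part of the series, so the comparisons are between members, arms, loci and libraries. The labels do not say whether the 3 came from separate cultures, so the spread between these libraries, which the arm test uses, may be technical. The exact tests between libraries and between rows of a shared sequence take account of counting error only. Listed mature counts came to 12694823, 10991953 and 11682129 in replicates 1, 2 and 3. Replicate 1 stood apart, since the median mature row was higher by 0.47 (log2 share of counts) in replicate 2 and by 0.56 in replicate 3 than in replicate 1. All 7 white blood cell marker miRNAs had rows. miR-150-5p was lowest of them with a mean of 53.2 FPKM (counts scaled by row length and library total), and the other 6 were at 27965 FPKM or above. All 8 markers of other tissues also had rows, at 71.6 to 13639.5 FPKM. Among them miR-1 of muscle, the 3p arm under its older name, had 1091, 845 and 865 counts over 2 rows.

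A miRNA hairpin is cut by Drosha in the nucleus and by Dicer in the cytoplasm. This leaves a short duplex, from which either the 5p or the 3p arm is loaded into an Argonaute protein. Bases 2 to 8 of the loaded arm, the seed, pair with target mRNAs, so arms that share a seed share many targets. In the human genome a miR-193 and a miR-365 hairpin lie side by side at a pair of loci, which are copies of each other. miR-193b is known as a suppressor of myeloid leukemia growth and as a brake on blood stem cell expansion, and the receptor tyrosine kinase KIT is a known target of the miR-193 3p arms. miR-365, with miR-193b, is also known from brown fat.

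The hairpins are shown because their arms decide which reads can be told apart. Sequences and positions are those of RefSeq on GRCh38.p14, where all 4 hairpins and all 8 arms matched, whereas the deposited tables carry no coordinates. Capitals mark the 5p arm and then the 3p arm, read 5′ to 3′.
MIR193B: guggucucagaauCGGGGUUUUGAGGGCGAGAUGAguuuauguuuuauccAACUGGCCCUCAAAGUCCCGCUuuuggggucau
MIR365A: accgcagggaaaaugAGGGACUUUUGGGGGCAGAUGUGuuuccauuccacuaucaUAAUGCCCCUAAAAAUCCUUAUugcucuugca
MIR193A: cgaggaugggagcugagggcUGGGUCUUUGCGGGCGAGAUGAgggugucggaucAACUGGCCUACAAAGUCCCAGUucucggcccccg
MIR365B: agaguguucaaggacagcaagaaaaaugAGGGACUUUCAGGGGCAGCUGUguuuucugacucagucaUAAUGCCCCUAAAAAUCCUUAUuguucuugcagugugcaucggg

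MIR193B (chr16:14303967-14304049, plus strand) and MIR365A (chr16:14309285-14309371, plus strand) are separated by 5235 bases. Both lie within the introns of all 4 GENCODE v29 transcripts of the lincRNA MIR193BHG that span them. On the other chromosome, MIR193A (chr17:31559996-31560083, plus strand) is followed by MIR365B (chr17:31575411-31575521, plus strand) after 15327 bases. No other GENCODE transcript on the plus strand overlaps MIR193A, and MIR365B shares 11 bases with an exon of the lincRNA AC003101.1 and otherwise lies in its intron. A further hairpin, MIR4725, ends 52 bases before MIR365B.

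The mature arms show the groups by seed, with the seed in capitals.
miR-193a-3p: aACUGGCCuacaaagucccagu
miR-193b-3p: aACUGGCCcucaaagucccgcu
miR-193a-5p: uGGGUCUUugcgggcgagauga
miR-193b-5p: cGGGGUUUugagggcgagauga
miR-365a-3p: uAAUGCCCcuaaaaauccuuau
miR-365b-3p: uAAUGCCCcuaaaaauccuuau
miR-365a-5p: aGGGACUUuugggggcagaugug
miR-365b-5p: aGGGACUUucaggggcagcugu

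The 3p arms of miR-193a and miR-193b share the seed ACUGGCC and differ at 4 of 22 positions (U9C A10U A20G G21C, with the miR-193a base first and positions counted from 1 at the 5′ end). Their 5p arms also differ at 4 positions (U1C U5G C6U C11A), and those at positions 5 and 6 give them separate seeds. The 3p arms of miR-365a and miR-365b are identical in all 22 bases, so a read of the arm does not say which locus made it. Their 5p arms share the seed GGGACUU and differ at 3 of the 22 positions compared (C10U A11G C19A, with the miR-365b base first). No other human miRNA in the RefSeq table held one of the seeds of the 6 listed arms.

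**Figure D1:**
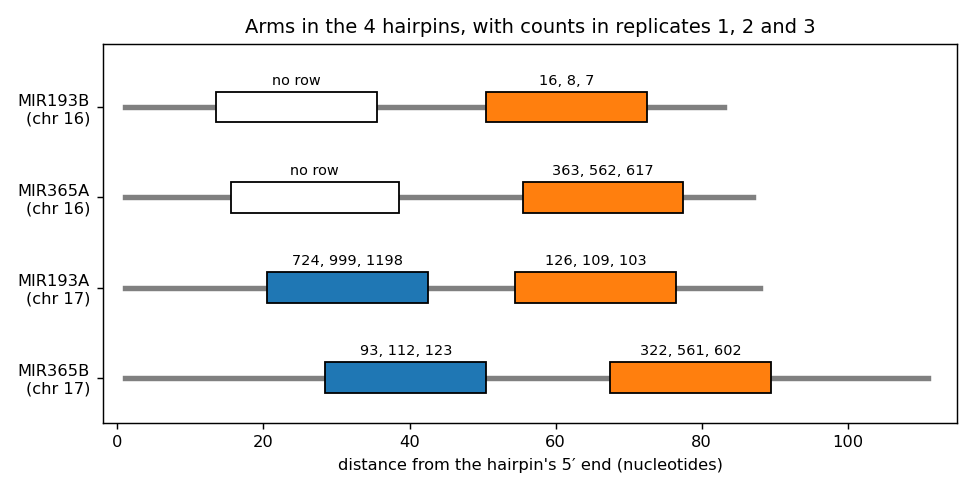
The 4 hairpins drawn to scale from their 5′ ends in nucleotides, with 5p arms in blue, 3p arms in orange and arms without a row in white. Numbers above the arms are counts in replicates 1, 2 and 3, and only the chromosome 17 hairpins had rows for both arms.

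The 6 mature rows lay at 4 levels, and miR-193b-3p, the only listed arm of miR-193b, was the lowest in every library. miR-193a-5p led with 724, 999 and 1198 counts in replicates 1, 2 and 3, or 3975 ± 1126 FPKM (SD, n = 3), and ranked 215 of 851. Its lowest library, at 2715 FPKM, was above the highest library of the other 5.

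miR-365a-3p had 363, 562 and 617 counts and 2103 ± 644 FPKM (SD, n = 3), at rank 257. miR-365b-3p had 322, 561 and 602 counts and 2030.3 ± 713 FPKM (SD, n = 3), at rank 259. These rows of an identical sequence differed by far less than the SD of either, and in both replicate 1 was the low library.

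miR-193a-3p had 126, 109 and 103 counts and 455 ± 30.3 FPKM (SD, n = 3), at rank 388. miR-365b-5p had 93, 112 and 123 counts and 445 ± 83.8 FPKM (SD, n = 3), at rank 391. Their order was not resolved, since miR-193a-3p was the higher in replicate 1 and the lower in replicates 2 and 3.

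miR-193b-3p had 16, 8 and 7 counts, 31 in all, and 41.1 ± 16.7 FPKM (SD, n = 3), at rank 764. Its share was 1.26 CPM, with a Wilson 95% interval of 0.776 to 2.05, for replicate 1. It was 0.728 CPM (0.369 to 1.44) for replicate 2 and 0.599 CPM (0.290 to 1.24) for replicate 3, where CPM is counts per 1000000 listed mature counts. The intervals overlap, and at this depth a difference between the libraries was not detectable on library totals. These intervals, like all others here, cover counting error only. Reads without molecular identifiers include PCR copies, so even the counting error may be understated. Ligation of adapters also favours some sequences over others, so ratios between arms are ratios of reads, not of molecules.

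**Figure D2:**
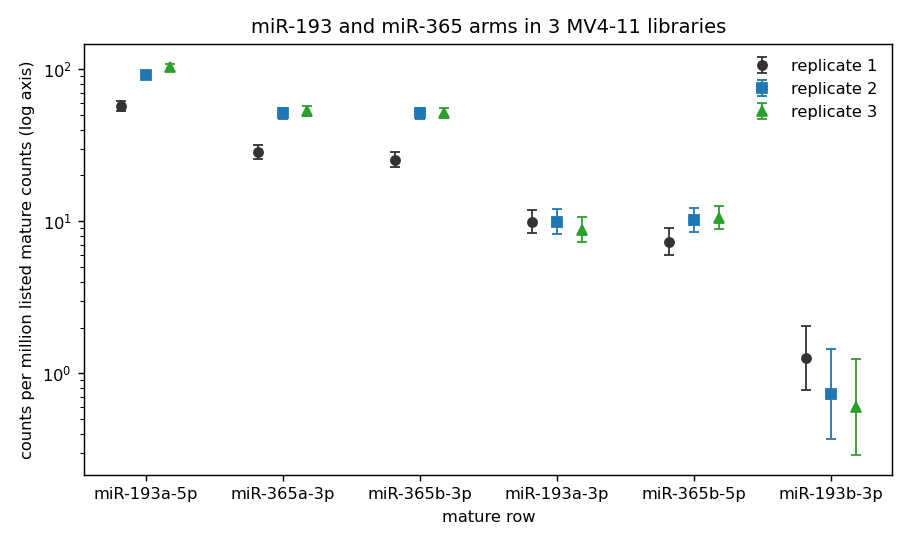
CPM (counts per 1000000 listed mature counts, log axis) of the 6 mature rows in replicates 1, 2 and 3, with Wilson 95% intervals as bars. The rows lie at 4 levels, and miR-193b-3p lies near 1 CPM with overlapping intervals.

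**Figure D3:**
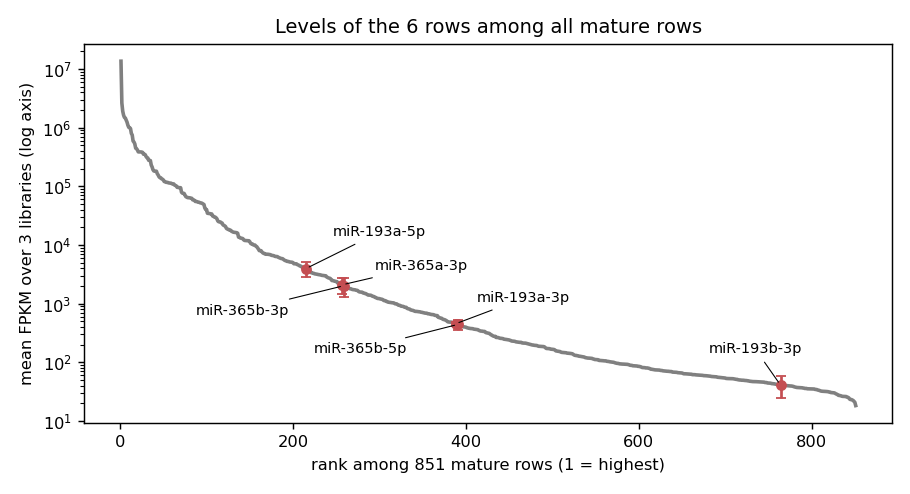
Mean FPKM over 3 libraries (log axis) of all 851 mature rows by rank, as a grey line, with the 6 rows in red and bars for SD. miR-193a-5p lies at rank 215 and miR-193b-3p at rank 764.

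Seen by seed, the levels of the family came to 4 sums. The AAUGCCC seed of both miR-365-3p rows had 685, 1123 and 1219 counts and 4134 ± 1356 FPKM (SD, n = 3), rank 128 of 580 seeds. The GGGUCUU seed of miR-193a-5p followed at rank 130, and the gap to the former was less than the SD of either. The ACUGGCC seed of the miR-193 3p arms, with 142, 117 and 110 counts and 496 ± 43.2 FPKM (SD, n = 3), ranked 237. miR-193b-3p gave 16, 8 and 7 of those counts. The GGGACUU seed of miR-365b-5p ranked 247.

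Reads that differ in sequence between the loci were assigned almost wholly to chromosome 17. The hairpin row hsa-mir-193a had 860, 1115 and 1311 counts, and hsa-mir-193b had 16, 8 and 8. hsa-mir-193a thus held 98.2%, 99.3% and 99.4% of their joint counts in replicates 1, 2 and 3, with exact 95% intervals of 97.1% to 99.0%, 98.6% to 99.7% and 98.8% to 99.7%. The ratio of the pair was 53.8, 139 and 164 in replicates 1, 2 and 3, with replicate 1 the lowest. Between the 3p arms alone, which share a seed, miR-193a-3p exceeded miR-193b-3p by 7.88-fold, 13.6-fold and 14.7-fold. Whether mismatched reads moved between these similar arms was not tested.

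For miR-365 the identical 3p arm carries no information on the locus, and the 5p arms were compared instead. miR-365b-5p had 93, 112 and 123 counts. All counts of hsa-mir-365a outside its 3p arm, which would include any of miR-365a-5p, came to 6, 1 and 0. miR-365b-5p made up 93.9%, 99.1% and 100% of these reads in replicates 1, 2 and 3, with exact 95% intervals of 87.3% to 97.7%, 95.2% to 99.98% and 97.0% to 100%. Pooled over both families, chromosome 17 was counted by the listed arms of miR-193a and by miR-365b-5p (943, 1220 and 1424 counts). Chromosome 16 was counted more widely, by the whole hsa-mir-193b row and all hsa-mir-365a counts outside the 3p arm (22, 9 and 8 counts). On these counts the share of chromosome 17 was 97.7%, 99.3% and 99.4%, a mean of 98.8% ± 0.948 (SD, n = 3).

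**Figure D4:**
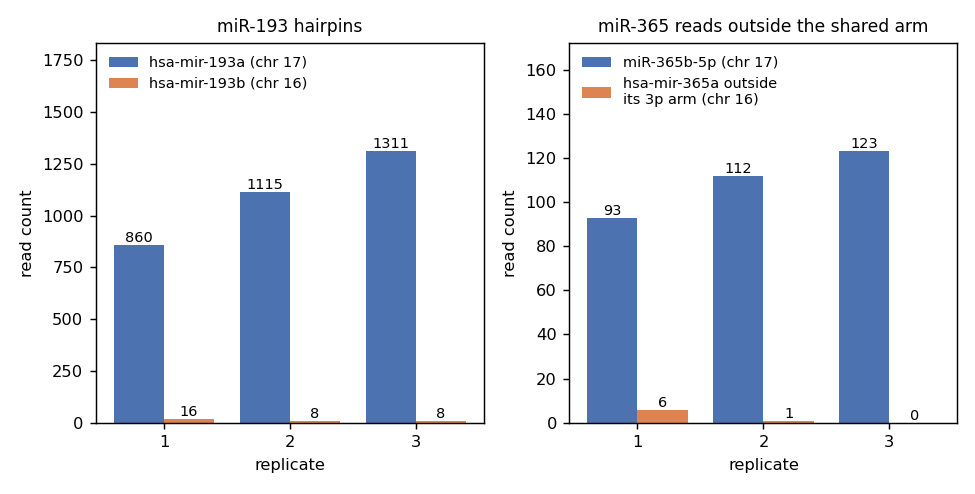
Read counts in replicates 1, 2 and 3 of the miR-193 hairpins (left) and of the miR-365 reads outside the shared 3p arm (right), chromosome 17 in blue and chromosome 16 in orange. Reads assigned to chromosome 16 number at most 16 on the left and at most 6 on the right.

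The hairpin levels of miR-365 did not show this gap between the loci. hsa-mir-365a, with 369, 563 and 617 counts, came to 514 ± 154 FPKM, and hsa-mir-365b, with 425, 682 and 746 counts, to 482 ± 154 FPKM (SD, n = 3). Their ranks were 197 and 204 of 661 hairpin rows, against 168 for hsa-mir-193a at 1075 ± 266 FPKM and 594 for hsa-mir-193b at 10.8 ± 3.90 FPKM (SD, n = 3). The reads of the shared arm were split almost evenly between the rows. miR-365a-3p took 53.0%, 50.04% and 50.6% of them in replicates 1, 2 and 3, with exact 95% intervals of 49.2% to 56.8%, 47.1% to 53.0% and 47.8% to 53.5%. No split was called unequal (exact binomial test, Benjamini-Hochberg adjusted p = 0.36, 1 and 1). Over the 111 splits of the 37 mature sequences with exactly 2 rows, 22.5% were called unequal at an adjusted p under 0.05, and the larger row held a median of 51.8%. The 3p reads make up most counts of both miR-365 hairpin rows, so these rows cannot tell the loci apart.

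The intervals over which reads were counted had 1 form in all members. Counts divided by FPKM gave a length of 21 bases for each of the 6 arms and of 82, 86, 87 and 110 bases for hsa-mir-193b, hsa-mir-365a, hsa-mir-193a and hsa-mir-365b. Each is 1 base under the RefSeq length, as it was for 98.6% of the 734 mature rows matched and 98.7% of the 523 hairpin rows matched. The listed arms held nearly all counts of their hairpins. Outside them lay 10, 7 and 10 counts of hsa-mir-193a, 10, 9 and 21 of hsa-mir-365b, and 0, 0 and 1 of hsa-mir-193b. The mean share within the arms was 99.1% for hsa-mir-193a, 97.8% for hsa-mir-365b, 99.4% for hsa-mir-365a and 95.8% for hsa-mir-193b, the last from very few counts. The median over the 534 hairpins that could be compared was 99.1%. At most 0, 0 and 1 counts were thus left for miR-193b-5p, and every row in the mature table had reached 10 counts in at least 1 library.

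The chromosome 17 hairpins favoured opposite arms. In miR-193a the 5p arm had 5.75, 9.17 and 11.6 times the counts of the 3p arm in replicates 1, 2 and 3, and was the higher in 3 of 3 libraries. The log2 ratio of 5p to 3p was 3.08 with an SD of 0.52 between libraries (edgeR quasi-likelihood test, adjusted p = 0.000363). In miR-365b the 3p arm had 3.46, 5.01 and 4.89 times the counts of the 5p arm, also in 3 of 3 libraries. Its log2 ratio was -2.14 with an SD of 0.30 (edgeR, adjusted p = 0.000938). Both were called, as were 82.1% of the 196 hairpin names tested, 40.8% toward 5p and 41.3% toward 3p, so calls were the common case. In size both were ordinary, at ranks 99 and 126 of 196, and the median absolute log2 ratio of all names was 3.13. miR-365b-3p has only its share of the reads of a sequence with 2 rows, whereas rows under a single name were summed. Rank 126 may thus understate miR-365b, and no rank was made with its 3p rows summed. With both 3p rows summed, a choice made after the data were seen, the 3p counts were 7.37, 10.03 and 9.91 times those of miR-365b-5p, and the log2 ratio of summed counts moved from -2.18 to -3.21. For miR-193b and miR-365a no arm test could be made with only the 3p arm listed.

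The first base of the arms was also read, because Argonaute proteins are known to favour a 5′ U. The higher arms, miR-193a-5p and miR-365b-3p, both begin with U, and the lower arms of these hairpins begin with A. Among the 131 called names with both arm sequences, the higher arm began with U in 57.3% and the lower arm in 21.4%. Among the 73 called names in which exactly 1 arm begins with U, that arm was the higher in 60, or 82.2%. Whether the first base had a part in the arm ratios was not tested.

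**Figure D5:**
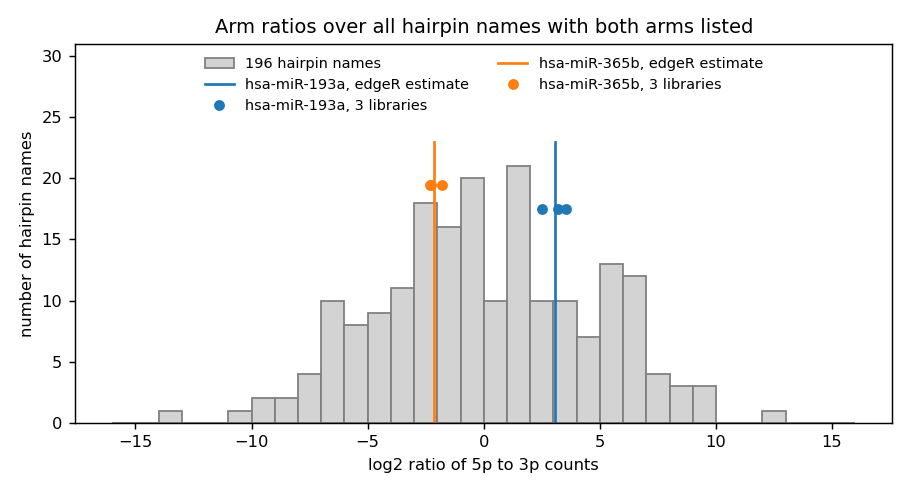
Histogram of the log2 ratio of 5p to 3p counts over 196 hairpin names (grey, edgeR estimates), with the estimates for miR-193a (blue) and miR-365b (orange) as lines and their 3 libraries as points at arbitrary height. miR-193a lies at 3.08 and miR-365b at -2.14, both within the bulk of the names.

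Libraries were compared to learn how far these values repeat. On library totals, an exact binomial test called 9 of 18 differences of the 6 mature rows at a Benjamini-Hochberg adjusted p under 0.05 over all rows and pairs. Between replicates 1 and 2, 4 of the 6 rows were called, where 53.1% of all 851 rows were, and between replicates 1 and 3 again 4, where 59.5% of all were. Between replicates 2 and 3 the test called 1, miR-193a-5p, which was higher by 0.17 (log2) in replicate 3 (exact binomial adjusted p = 0.0116), where 34.8% of all were called. The rows called against replicate 1 were miR-193a-5p, miR-365a-3p, miR-365b-3p and miR-365b-5p. All were higher in replicates 2 and 3 than in replicate 1, by 0.47 to 1.02 on the log2 scale, and the miR-193 3p arms were not called in any pair.

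Scaling by median-of-ratios size factors, which removes the shift of the median row, also called 9, but 3 of these were now lower outside replicate 1. For miR-193a-3p, replicates 2 and 3 had log2 ratios of -0.47 and -0.73 to replicate 1. That of miR-193b-3p was -1.58 in replicate 3 (exact binomial adjusted p = 0.0244). miR-193a-5p and both miR-365-3p rows were higher in replicates 2 and 3 under either scaling. miR-365b-5p, called against replicate 1 on library totals, was not called with size factors (log2 ratios of 0.0063 and -0.04 in replicates 2 and 3, exact binomial adjusted p = 1 and 0.899). No member was called between replicates 2 and 3 with size factors. With these factors 51.8% of all rows were called for replicate 2 against 1, 53.9% for replicate 3 against 1, and 32.0% for replicate 3 against 2.

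The arm ratio of miR-193a needs no scaling and it too differed between libraries. The 5p arm took 85.2%, 90.2% and 92.1% of the arm counts in replicates 1, 2 and 3, with exact 95% intervals of 82.6% to 87.5%, 88.3% to 91.9% and 90.5% to 93.5%. Fisher's exact test, added after the data were seen, gave an adjusted p of 0.00262 when replicate 2 was set against replicate 1 and 2.42e-06 when replicate 3 was. Replicates 2 and 3 gave 0.195. Such calls were common, with 52.6%, 54.6% and 30.1% of 196 names in the same pairs of libraries. For miR-365b the adjusted p of the exact test was 0.045, 0.0587 and 0.936.

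The hairpins were set beside lists of loci. By mean FPKM, hsa-mir-193b (10.8 ± 3.90) was lower than all 26 others of the 27 loci that the growth screen listed. Of these hsa-mir-150 was next with 14.1 ± 7.48 FPKM and hsa-mir-155 the highest with 378768 ± 42956 FPKM (SD, n = 3). In replicate 1, however, hsa-mir-150 had 7 counts against 16 of hsa-mir-193b. It had 13 and 21 against 8 and 8 in replicates 2 and 3. Which of this pair was the lowest of the screen list was thus not resolved. That list kept only miRNAs found in these cells and is not independent of level. hsa-mir-193a stood above 15 and below 12 of the 27.

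A fixed list held 11 hairpins that have been described as growth suppressors in blood cancers. That role is not settled for all of them, since the paper cites work in which miR-29a induced acute myeloid leukemia. Of the 11, all were above hsa-mir-193b, 9 above hsa-mir-365a, 10 above hsa-mir-365b and 8 above hsa-mir-193a. Highest was hsa-mir-223, the miRNA of granulocytes and monocytes, with 65575 ± 26087 FPKM (SD, n = 3). Next came hsa-mir-16-2 at 40746 ± 17287, hsa-mir-29a at 33927 ± 12635 and hsa-mir-16-1 at 29854 ± 16039 FPKM. hsa-mir-22 had 12681 ± 2254 FPKM, hsa-mir-124-1 had 5903 ± 3058, hsa-mir-15a had 5407 ± 2737 and hsa-mir-34a, a p53 target, had 4212 ± 1672. Only hsa-mir-29b-1 at 554 ± 134, hsa-mir-29b-2 at 506 ± 142 and hsa-mir-29c at 391 ± 132 FPKM lay below hsa-mir-193a. Hairpins with an identical arm share the reads of that arm between their rows, as for miR-365-3p, miR-16-5p and miR-29b-3p. The values of these hairpins are therefore not levels of single loci. Only sequences with exactly 2 rows were examined for this, so other hairpins of the list may also share reads.

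Neighbouring hairpins are often listed together. Of RefSeq hairpins with a listed neighbour within 10000 bases on the same strand, 86.9% were listed, against 523 of all 1560. Both members of each cluster had a row, though the chromosome 17 pair lies farther apart than that. The hsa-mir-365a row held 6, 1 and 0 counts outside the shared 3p arm in replicates 1, 2 and 3. Apart from these few counts, the row does not show that the chromosome 16 copy of miR-365 gave reads. Whether the few came from that copy was not tested. hsa-mir-4725, next to MIR365B, had 8, 13 and 19 counts.

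The rows most like the members were found by distance on the log2(FPKM + 1) scale over 3 libraries. miR-365a-3p and miR-365b-3p were each other's nearest row, at a distance of 0.18. miR-193a-5p was nearest to miR-505-3p at 0.13, miR-193a-3p to miR-5010-3p at 0.17, and miR-365b-5p to miR-486-5p at 0.25. miR-193b-3p was nearest to miR-4797-3p at 0.12, which had the same 16, 8 and 7 counts. With only 3 points, likeness is mostly likeness of level.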

How the data were processed

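Small RNA libraries (NEB protocol) of 3 MV4-11 samples were sequenced on an Illumina HiSeq instrument. Per the labels, the authors' processing notes name Novoalign 2.08.03 and the builds mm10 and hg19, with no role given for either. The authors counted reads over mature arms and hairpins of miRBase v21 and deposited raw counts, and FPKM that they computed from these counts, for both tables. Trimming, permitted mismatches and the handling of reads with several matches are not given in the sources used here. Every row held at least 10 counts in 1 or more libraries, so no level was given to an unlisted arm. The deposited tables held 0 unused per-sample columns.

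Levels are the deposited FPKM, and shares use listed counts. Arms were compared with edgeR 4.0.16 (glmQLFit and glmQLFTest, library as block) over 196 hairpin names with both arms listed, rows of a name summed. Calls needed a Benjamini-Hochberg adjusted p under 0.05 and an absolute log2 ratio of at least 1. limma 3.58.1 and DESeq2 1.42.0 were alternatives. Libraries were compared with exact two-sided binomial tests over 851 rows and all pairs of libraries, with ratios taken after adding 0.5 counts. Tests were tried on simulated data. For the binomial and Fisher tests these data held counting error only, so the trial does not cover spread between libraries. Python 3.11.15, scipy 1.17.1, pandas 2.3.3 and R 4.3.3 were used. Sequences matched 734 mature rows.

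Members and lists were chosen with earlier results of these data known. Named rows are all members, the rows most like them, rows that share a seed, and the fixed lists. The tests of arm ratios between libraries and of equal splits were added after the data were seen.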

Additional observations from a re-analysis of the deposited data

How the results depend on the processing

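Of 199 values recomputed under an alternative, 174 stayed within their threshold or spread, 25 moved and 0 reversed. Some of these could not move, so the count of 174 overstates how far the values were put to the test. Leaving out a replicate shifts a mean over 3 libraries by less than its SD. For hsa-mir-193b and hsa-mir-365a the 3p row was already the only listed arm. Member differences called between libraries numbered 9 on library totals and with size factors, but the rows called were not the same. Both arm calls held under limma, DESeq2, other size factors and a filter of 10 counts. The log2 ratio of miR-193a ran from 2.86 to 3.37 and that of miR-365b from -2.31 to -2.04 with one replicate left out, and hairpin names called ran from 140 to 169. Ranks moved when rows of a name were summed, which leaves fewer rows, to 191 for miR-193a-5p, 229 for miR-365a-3p, 230 for miR-365b-3p, 347 for miR-193a-3p and 350 for miR-365b-5p. The rank of miR-365b-5p ran from 387 to 391 with one replicate left out. That of miR-193b-3p, 764 on all libraries, ran more widely, from 712 to 828, and was 700 with rows of a name summed. In replicates 1, 2 and 3 alone, miR-193b-3p ranked 623, 794 and 819. With the 3p row alone in place of both arms, 10.8% of hsa-mir-193a and 79.6% of hsa-mir-365b counts lay in it, by construction. Within 50000 bases, 76.4% of hairpins with a listed neighbour were listed. The nearest rows were unstable, since leaving out a replicate kept as few as 0 of 3 for hsa-mir-193b and miR-365b-5p.

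Depth limits miR-193b most. With 7 to 16 counts per library, its level is the least certain of the 6 rows. Arms were paired within each library, and with a single group there were no groups to pair.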
